A study of Mus musculus with 20 samples.

Results

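The genes of fatty acid oxidation described here were 38 members chosen by symbol, 23 for mitochondrial and 15 for peroxisomal proteins, out of 47069 genes in the count table. They were chosen with earlier results of these data known, so counts of members beside all genes are a description. Each of the 38 symbols matched 1 gene, and all 38 were among the 17622 genes with enough counts to be tested. Mitochondrial β-oxidation shortens activated fatty acids in repeated rounds of dehydrogenation, hydration, a second dehydrogenation and thiolysis, and hands electrons to the respiratory chain. Peroxisomes shorten very long, branched and dicarboxylic fatty acids and pass the products on to mitochondria. The proximal tubule of the kidney is known to draw much of its energy from fatty acids, and the nuclear receptor PPARα is a known activator of many of these genes.

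Kidney RNA came from 20 mice of the strain 129SJ x C57Bl/6J, an F1 cross, at 15 weeks of age. The WT group (5 mice) carried intact Col4a3 and was left untreated. The other groups were male Col4a3-/- mice, a model of Alport syndrome in which a chain of glomerular basement membrane collagen is missing. From 5 weeks of age they received PBS once weekly under the skin (Veh, 6 mice), weekly Lademirsen at 50 mg/kg in PBS, an oligonucleotide against miR-21 (Anti-miR-21, 6 mice), or the ACE inhibitor ramipril in drinking water at 11 mg/L (ACEi, 3 mice). ACEi mice were also injected weekly with PBS according to the study's methods, and no WT mice received either drug.

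Totals of estimated counts lay between 28474301 and 29479629 per mouse. Col4a3 stood at 194 to 238 CPM (counts scaled to library size) in WT and at 27.9 to 74.9 CPM in the Col4a3-/- mice, without overlap. CPM values here follow trimmed-mean (TMM) scaling, which sets each library against the bulk of genes. Against library totals alone, the all-gene median of the log2 fold change in Veh against WT moved from 0.07 to 0.65, and the share of higher genes among those called moved from 53.4% to 81.2%, so fold changes are relative to the bulk of genes. The samples are labelled kidney, although the extraction protocol names adipose tissue, and kidney markers of the proximal tubule and the thick ascending limb were abundant (summed 11427 to 14903 CPM and 5586 to 6800 CPM in WT). White adipocyte markers stood apart in Veh mice A1, A4 and A9 and in Anti-miR-21 mouse A12, at a summed 90.1 to 120 CPM against at most 22.4 CPM in any other mouse. The brown adipocyte markers Ucp1 and Cidea summed to 31.3, 73 and 36.5 CPM in A1, A4 and A12 and to 0.616 CPM in A9. Without these 4 mice all 38 members were still called in the comparisons with Veh, 17 mitochondrial and 11 peroxisomal members were lower in Anti-miR-21 than in WT in place of 15 and 9, and 19 and 13 in ACEi in place of 19 and 12. Flow cells A and B, named in the library labels, each held mice of every group, but unevenly. On A and B there were 3 and 2 WT, 4 and 2 Veh, 5 and 1 Anti-miR-21, and 1 and 2 ACEi mice. The treated groups therefore differed in flow cell as well as in treatment.

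The members made up 1.18% to 1.24% of all counts in WT, 0.424% to 0.656% in Veh, 0.909% to 1.12% in Anti-miR-21 and 0.889% to 0.952% in ACEi mice. The WT, Veh and treated ranges did not overlap, while those of both treated groups did. In FPKM, read fragments scaled by exon length and by library size, which allow levels to be compared between genes, the most abundant member in WT was Acadm (590 ± 37.5 FPKM, SD, n = 5), the medium-chain acyl-CoA dehydrogenase. Phyh (458 ± 52.9 FPKM), which starts the α-oxidation of phytanic acid, and Pecr (405 ± 15.7 FPKM), a peroxisomal enoyl-CoA reductase, followed. The ranges of Phyh and Pecr overlapped, and that of Acadm lay above both. In Veh mice Acadm (122 ± 49.8 FPKM, n = 6) ranked 5 among the members and Etfb (191 ± 30.3 FPKM), a subunit of electron transfer flavoprotein, ranked 1, whereas in both treated groups Acadm ranked 1 again. The lowest level in WT was that of Hacl1 (8.78 ± 1.11 FPKM), the lyase of α-oxidation.

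**Figure D1:**
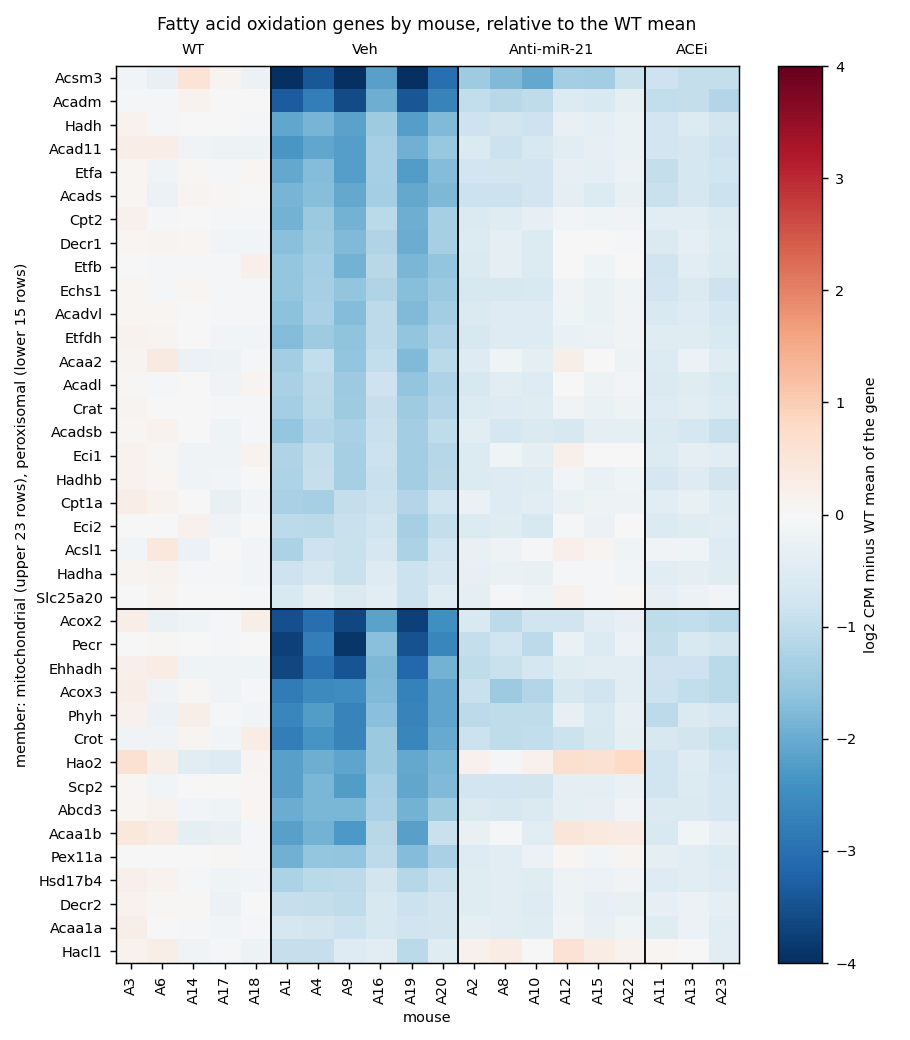
Each of 38 members (rows) in each of 20 mice (columns, by group) as log2 CPM after TMM scaling minus the mean of the gene over the 5 WT mice. Blue marks levels below the WT mean, and in the Veh columns every member is blue, with A16 the palest Veh column.

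The oligonucleotide given to the Anti-miR-21 group is directed at the following mature microRNA, which is shown because its seed (bases 2 to 8, in capitals) pairs with target sites.
mmu-miR-21a-5p: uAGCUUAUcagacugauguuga
The sequence is from RefSeq (GRCm38.p6, chr11:86584120-86584141, minus strand). Matches to bases 2 to 8 (ATAAGCT), or to bases 2 to 7 followed by A (TAAGCTA), were searched on the transcript strand in the longest annotated 3′UTR of each gene, and a site that holds both, which overlap by 6 bases, counts as 2 matches. None of the 38 members held a match, whereas 12.6% of the 15301 tested genes with an annotated 3′UTR did. The 3′UTRs of the members had a median length of 748.5 bases and those of all tested genes 1287 bases, so fewer matches could occur in the members. Among the receptors and coactivators that act on these genes, Ppara held 2 matches and Ppargc1a held 1. A match describes letters and not a site in use.

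Promoter sequences (RefSeq, GRCm38.p6; 250 bases before to 50 bases after the gene start) were at hand for 34 of the 38 members. They were searched on both strands for a direct repeat of AGGTCA with 1 base of any kind (N) between the copies, the element bound by PPARα with its partner RXRα, and for TNAAGGTCA, the motif of the estrogen-related receptors, which shares AGGTCA with it. No member matched the repeat in full or with 1 mismatch, as 0.0396% and 0.554% of 32851 promoters did. With 2 mismatches 4 of 34 members (11.8%) matched, against 3.86% of all promoters, and no member held TNAAGGTCA, against 1.28%. Members were counted by gene and the background by promoter entry, so these shares are not like for like. Elements outside these bases were not searched. The 4 promoters are shown because they hold the match, given in capitals.
Echs1, chr7:140116372-140116671, minus strand: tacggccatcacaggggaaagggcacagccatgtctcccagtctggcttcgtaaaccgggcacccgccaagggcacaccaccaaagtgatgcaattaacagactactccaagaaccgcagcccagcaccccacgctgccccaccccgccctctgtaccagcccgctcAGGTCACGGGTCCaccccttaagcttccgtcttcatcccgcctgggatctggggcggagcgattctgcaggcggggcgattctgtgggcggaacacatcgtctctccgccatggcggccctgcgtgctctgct
Etfa, chr9:55512194-55512493, minus strand: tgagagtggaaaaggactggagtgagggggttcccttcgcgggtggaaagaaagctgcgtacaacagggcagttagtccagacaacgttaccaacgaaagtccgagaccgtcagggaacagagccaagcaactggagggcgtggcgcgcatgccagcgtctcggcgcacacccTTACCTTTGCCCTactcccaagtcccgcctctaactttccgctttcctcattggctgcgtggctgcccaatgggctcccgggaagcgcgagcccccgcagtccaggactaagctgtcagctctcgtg
Slc25a20, chr9:108661886-108662185, plus strand: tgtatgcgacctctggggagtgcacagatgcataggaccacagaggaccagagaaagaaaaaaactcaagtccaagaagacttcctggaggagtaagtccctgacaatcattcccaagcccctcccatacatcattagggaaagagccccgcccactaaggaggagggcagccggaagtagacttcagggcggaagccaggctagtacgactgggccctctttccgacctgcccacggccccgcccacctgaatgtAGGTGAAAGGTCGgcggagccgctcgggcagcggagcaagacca
Acox2, chr14:8258790-8259089, minus strand: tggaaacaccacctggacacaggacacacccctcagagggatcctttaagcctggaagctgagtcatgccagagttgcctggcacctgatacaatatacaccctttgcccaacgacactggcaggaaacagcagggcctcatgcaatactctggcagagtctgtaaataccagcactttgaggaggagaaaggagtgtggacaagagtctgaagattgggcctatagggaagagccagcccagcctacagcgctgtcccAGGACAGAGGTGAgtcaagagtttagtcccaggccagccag
The match lay upstream of the start in Echs1 and Etfa and just downstream of it in Slc25a20 and Acox2. These 4 genes covered nearly the whole range of falls described next, from Acox2, the steepest among peroxisomal members, to Slc25a20, the smallest of all 38.

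Veh was compared with WT to ask how the genes differed in Alport kidneys given PBS alone. All 23 mitochondrial and all 15 peroxisomal members were lower in Veh (edgeR quasi-likelihood test, Benjamini-Hochberg adjusted p under 0.05), where 34.0% of all tested genes were called lower, although Slc25a20 turned to a log2 fold change of 0.03 when counts were scaled to library totals. In each of the 38, the highest Veh mouse lay below the lowest WT mouse, which held in the lower direction for 26.1% of all genes. The median log2 fold change was -1.43 for mitochondrial members (range -3.47 to -0.55) and -1.86 for peroxisomal members (range -2.97 to -0.71), against 0.07 over all genes. Scaled to library totals, 22 mitochondrial and 14 peroxisomal members were called lower, and Slc25a20 and Hacl1 (-0.13) were not called. The proximal tubule markers fell along with the members, as described further on, and in whole-kidney RNA fewer cells of a type and less RNA per cell cannot be told apart.

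**Figure D2:**
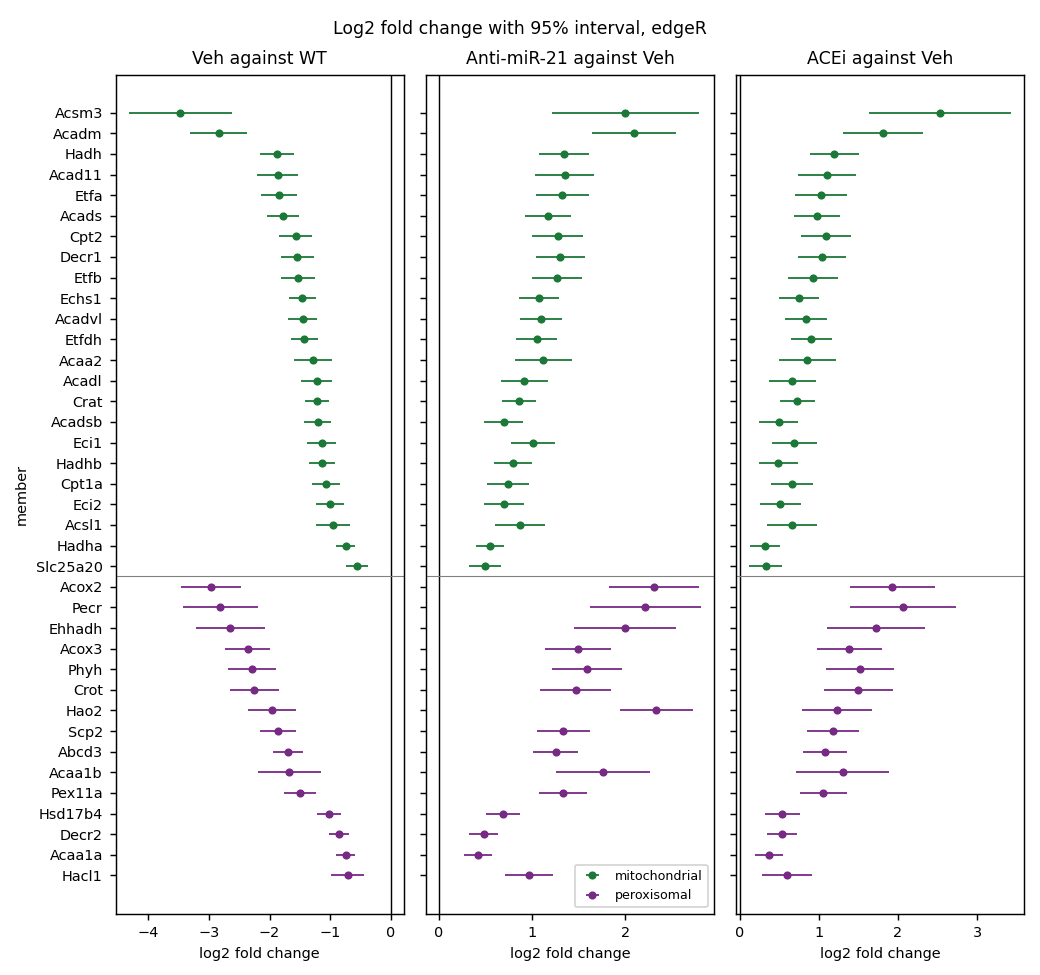
Log2 fold change (points) with its 95% interval (lines) from the edgeR fit with TMM scaling for each member in Veh against WT, Anti-miR-21 against Veh and ACEi against Veh. All 38 intervals lie below 0 in the first panel and above 0 in the other panels.

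Activation of fatty acids comes first, and here the steepest fall of all members was found. Acsm3, a mitochondrial medium-chain acyl-CoA synthetase, stood in WT mice at 905, 932, 1019, 1196 and 1602 CPM. In Veh mice it ran from 28.6 through a median of 76.4 to 248 CPM. The lowest WT mouse was far above the highest Veh mouse, A16, and Veh mice differed widely among themselves (log2 fold change -3.47 ± 0.41 SE, adjusted p = 1.86e-07 in edgeR). Acsl1, the long-chain synthetase, fell less (172 ± 32.2 CPM in WT, 88.8 ± 15.3 CPM in Veh, SD, n = 5 and 6; log2 fold change -0.95).

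Carnitine carries long-chain acyl groups across the mitochondrial membranes. Cpt1a, the outer-membrane transferase that controls entry, fell by 1.07 on the log2 scale, and Cpt2, its inner-membrane partner, fell by 1.57. Crat, which transfers acetyl groups to carnitine, fell by 1.22. Slc25a20, the translocase between the membranes, had the smallest fall of all members (53.8 ± 2.58 CPM in WT, 36.7 ± 4.26 CPM in Veh; log2 fold change -0.55 ± 0.09 SE).

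The acyl-CoA dehydrogenases open each round of β-oxidation, and all 6 fell, by 1.21 to 2.84 on the log2 scale. Acadm stood at 1427, 1436, 1457, 1459 and 1626 CPM in the WT mice. Veh mice ranged from 125 through a median of 182 to 378 CPM, with A16 again the highest (log2 fold change -2.84 ± 0.23 SE, adjusted p = 6.38e-10 in edgeR). For Acad11, a family member found in mitochondria and peroxisomes, WT mice stood at 217, 219.1, 231, 304 and 306 CPM. Veh mice ranged from 50.4 through 63 to 99.8 CPM (log2 fold change -1.87 ± 0.16 SE). WT mice A3 and A6 were the high pair. Acads for short chains fell by 1.78, Acadvl for very long chains by 1.45, Acadl for long chains by 1.22 and Acadsb for short branched chains by 1.21 on the log2 scale.

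Hydration, the second dehydrogenation and thiolysis close the round. Hadh, the dehydrogenase for short and medium chains, stood at 666, 669, 706, 712 and 768 CPM in WT and between 153 and 264 CPM in Veh mice, with a median of 181 CPM. The groups were widely separate (log2 fold change -1.89 ± 0.13 SE, adjusted p = 1.63e-10 in edgeR). Echs1, the short-chain hydratase, fell by 1.46, and the thiolase Acaa2 by 1.29. Hadha and Hadhb encode the α and β subunits of the trifunctional protein, which takes long chains through all of these steps. They fell by 0.74 and 1.14 on the log2 scale, and their 95% intervals of -0.91 to -0.58 and -1.35 to -0.92 did not overlap.

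The genes for both subunits lie head to head on chromosome 5, with 85 bases between their annotated ends (Hadha chr5:30118304-30155162 on the minus strand, Hadhb chr5:30155248-30184593 on the plus strand, GRCm38). The Hadhb promoter is shown because it spans the gap between the genes.
Hadhb, chr5:30155003-30155302, plus strand: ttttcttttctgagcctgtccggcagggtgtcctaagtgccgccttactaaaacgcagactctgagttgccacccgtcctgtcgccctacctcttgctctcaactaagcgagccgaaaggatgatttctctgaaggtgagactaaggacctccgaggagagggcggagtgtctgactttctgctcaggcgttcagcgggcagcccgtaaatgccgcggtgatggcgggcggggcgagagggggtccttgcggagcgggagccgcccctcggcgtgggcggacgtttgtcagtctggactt
Of the 100-base stretches of the Hadhb transcript, 52.8% occur also in Gm13910, and the exons of Hadha overlap Garem2 on the opposite strand.

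Electron transfer flavoprotein passes electrons from the dehydrogenases to the respiratory chain. Its subunits Etfa and Etfb fell by 1.84 and 1.53, and Etfdh, which hands the electrons to ubiquinone, fell by 1.43 on the log2 scale. Auxiliary enzymes prepare unsaturated chains. Decr1, the dienoyl-CoA reductase, fell by 1.55, and the isomerases Eci1 and Eci2 fell by 1.14 and 1.01.

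In peroxisomes, Abcd3, which imports acyl-CoA, fell by 1.69, and Crot, which makes carnitine esters of shortened chains for export, fell by 2.25 on the log2 scale. The acyl-CoA oxidases open peroxisomal β-oxidation. Acox2, the oxidase for branched chains and bile acid intermediates, stood at 103, 110, 117, 146 and 147 CPM in WT and from 9.18 through a median of 13 to 28.2 CPM in Veh (log2 fold change -2.97 ± 0.24 SE, adjusted p = 8.23e-10 in edgeR). The fall in Acox2 was the steepest among peroxisomal members. Acox3, another branched-chain oxidase, stood at 325, 326, 351, 373 and 434 CPM in WT and from 51.9 through 63.2 to 105 CPM in Veh (log2 fold change -2.36 ± 0.18 SE). Hao2, a 2-hydroxyacid oxidase and not an acyl-CoA oxidase, varied widely in WT, at 320, 337, 491, 531 and 689 CPM. It still lay above all Veh mice in every WT mouse (101 through 114 to 162 CPM in Veh, log2 fold change -1.97 ± 0.19 SE).

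Among the enzymes that follow, Ehhadh, the bifunctional hydratase and dehydrogenase, stood at 799, 805, 808, 1026 and 1092 CPM in WT. The Veh mice ranged from 72 through a median of 108 to 259 CPM, again with A3 and A6 as the high WT pair (log2 fold change -2.65 ± 0.28 SE). Hsd17b4, which carries the same activities with the other stereochemistry, fell by 1.02. Pecr stood at 564, 572, 577, 593 and 599 CPM in WT, within a narrow range, and from 38.8 through 68.7 to 182 CPM in Veh (log2 fold change -2.81 ± 0.30 SE, adjusted p = 4.31e-08 in edgeR). Decr2, the other peroxisomal reductase, fell by 0.85.

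Thiolases end the peroxisomal round. Scp2, a thiolase and lipid carrier, fell by 1.86 on the log2 scale, Acaa1b by 1.68 and Acaa1a by 0.74. Acaa1a and Acaa1b are related copies that have 21.6% and 22.6% of their 100-base stretches in common, so the split of counts between them is uncertain. In α-oxidation Phyh fell by 2.29 and Hacl1 by 0.71. Of the Hacl1 stretches 47.8% lie also in Gm49387, which overlaps it on the same strand. Pex11a, a factor of peroxisome division, fell by 1.5.

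**Figure D3:**
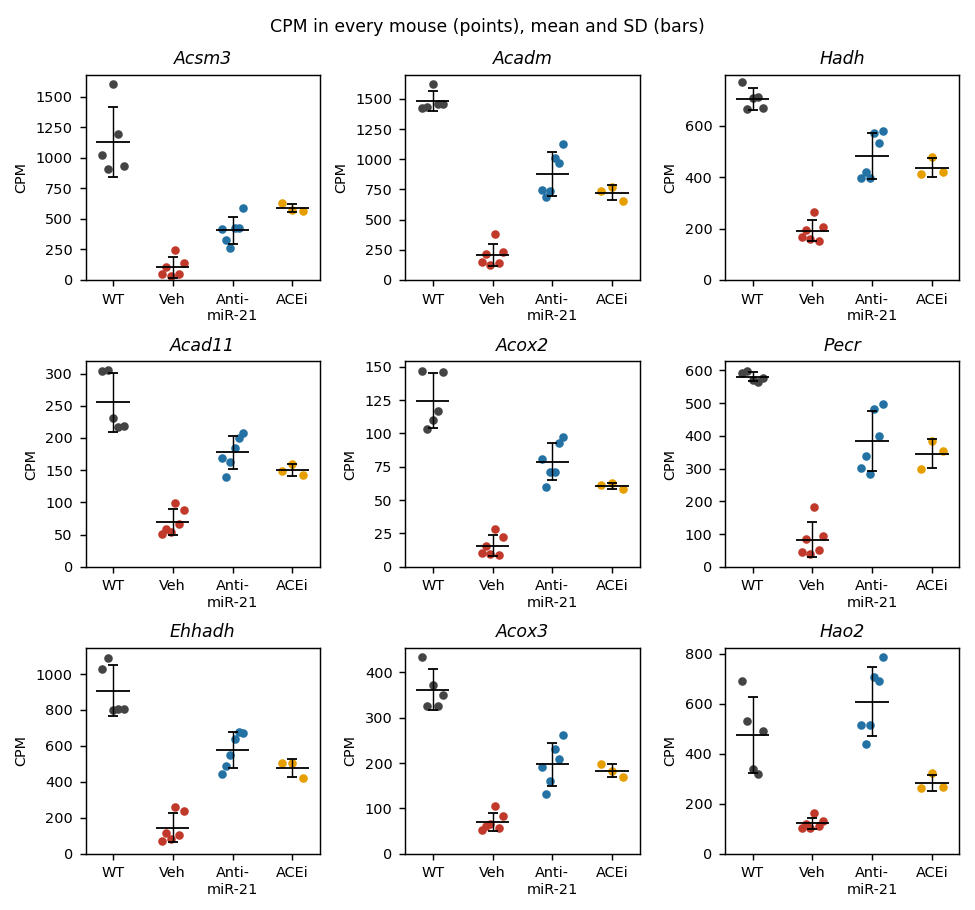
CPM of 9 members in every mouse (points), with the group mean and SD (bars). Veh points lie below all WT points in each panel, and for Hao2 the 6 Anti-miR-21 mice lie above the 3 ACEi mice.

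Among Veh mice, the members varied together. A16 was the highest Veh mouse for 34 of 38 members, and A16 and A20 were the highest pair for 24. Both were sequenced on flow cell B, whereas A1, A4, A9 and A19 were on flow cell A. Their median distance from the WT mean over mitochondrial members was -1.05 and -1.25 on the log2 scale, against -1.70 to -1.33 in the others. With flow cell as a term in the fit, and in flow cell A alone, all 23 mitochondrial and all 15 peroxisomal members were still called lower in Veh against WT.

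Anti-miR-21 was compared with Veh to ask which members differed with the treatment. All 38 members were higher in Anti-miR-21 mice (edgeR, adjusted p under 0.05), where 28.8% of all genes were called higher, and every Anti-miR-21 mouse lay above every Veh mouse for each member, as for 18.6% of genes. The median log2 fold change was 1.07 for mitochondrial members (range 0.50 to 2.09) and 1.46 for peroxisomal members (range 0.42 to 2.33), against -0.04 over all genes. On library totals 22 mitochondrial and 14 peroxisomal members were higher, with Slc25a20 at 0.15 and Acaa1a at 0.07 on the log2 scale and not called.

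Hao2 rose most, with Anti-miR-21 mice at 437, 513, 513, 692, 705 and 787 CPM (log2 fold change against Veh 2.33 ± 0.19 SE, adjusted p = 2.94e-08 in edgeR). Acox2 ran from 59.9 through a median of 76.1 to 97.4 CPM (log2 fold change 2.31 ± 0.23 SE), and Pecr from 283 through 369 to 498 CPM (2.21 ± 0.29). The lowest treated mouse lay clear of the highest Veh mouse in each of these members. Acadm, the highest riser among mitochondrial members, ran from 686 through 856 to 1128 CPM (log2 fold change 2.09 ± 0.21 SE). Acsm3 ran from 265 through 418 to 592 CPM (2.0 ± 0.38), and Ehhadh from 446 through 594 to 677 CPM (2.0 ± 0.26). Acox3 (131 through 200 to 261 CPM), Hadh (396 through 475 to 580 CPM) and Acad11 (140 through 177 to 208.2 CPM) rose by 1.49, 1.34 and 1.35 on the log2 scale. The smallest rise was that of Acaa1a, at 0.42.

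The 6 Anti-miR-21 mice were sorted into a higher and a lower trio after their member values were seen. A12, A15 and A22 all stood above A2, A8 and A10 for 32 of 38 members, a count that only describes this split. The median distance from the WT mean over mitochondrial members was -0.24 to -0.13 on the log2 scale in the first trio and -0.57 to -0.51 in the second. The summed proximal tubule markers were also higher in A12, A15 and A22 (9795, 8384 and 10662 CPM) than in A2, A8 and A10 (7134, 6193 and 6912 CPM), and their part in this split was not tested. A10 of the lower trio was the lone Anti-miR-21 mouse on flow cell B, and A12 of the higher trio was the one with high adipocyte markers.

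ACEi was compared with Veh in the same way. The 3 ACEi mice share the Veh mice as their control with the comparison above. All 38 members were called higher (edgeR, adjusted p under 0.05), where 21.0% of all genes were, and 37 of them did not overlap with Veh, as 19.8% of genes did in that direction. Hacl1 was the exception, at 21.2, 28.8 and 29.9 CPM in ACEi and up to 21.3 CPM in Veh. The median log2 fold change was 0.84 for mitochondrial members (range 0.32 to 2.53) and 1.23 for peroxisomal members (range 0.37 to 2.06), against -0.05 over all genes. On library totals 19 mitochondrial and 13 peroxisomal members were called, and Acadsb, Hadha, Hadhb, Slc25a20, Acaa1a and Hacl1 were not.

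Acsm3 rose most under ACEi, at 567, 574 and 629 CPM (log2 fold change 2.53 ± 0.43 SE, adjusted p = 0.000143 in edgeR). Pecr stood at 300, 353 and 385 CPM (2.06 ± 0.32), Acox2 at 58.1, 61.2 and 62.9 CPM (1.93 ± 0.26) and Acadm at 658, 741 and 772 CPM (1.81 ± 0.24). All 3 mice stood above the Veh mice in these 4 members. Ehhadh, at 421, 506 and 507 CPM, rose by 1.72, Acox3, at 169, 183 and 198 CPM, by 1.39, and Hao2, at 262, 267 and 321 CPM, by 1.23 on the log2 scale. Hadh, at 412, 420 and 478 CPM, rose by 1.20, and Acad11, at 142, 148 and 160 CPM, by 1.10. Hadha (0.32) and Slc25a20 (0.33) rose least, and on library totals they came to 0.05 and 0.06 and were not called. Slc25a20 was also not called without A23 (adjusted p = 0.071 in edgeR).

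**Figure D4:**
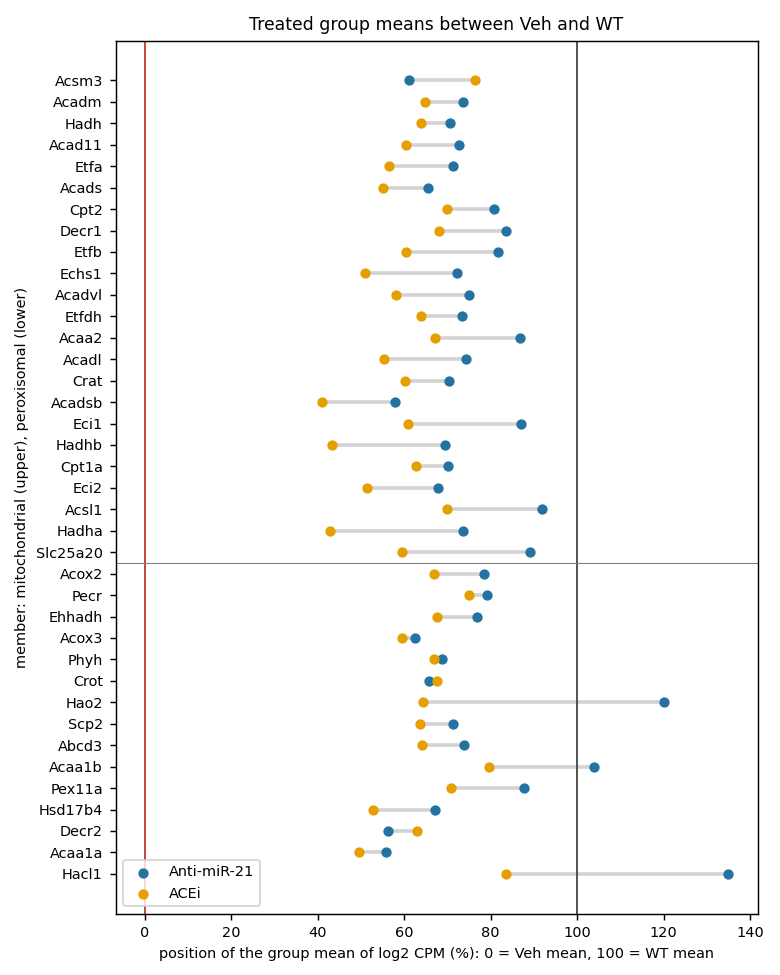
For each member, the mean log2 CPM after TMM scaling of the Anti-miR-21 and ACEi mice as a percentage of the distance between Veh (mean at 0) and WT (mean at 100). Most points lie between 41% and 100%, and the Anti-miR-21 points of Hao2, Acaa1b and Hacl1 lie past the WT mean.

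On the log2 scale, the Anti-miR-21 mean lay at a median of 73.5% of the way from Veh to WT over the 38 members (range 55.8% to 135%), and the ACEi mean at 63.3% (range 41% to 83.6%). Acsm3 (61.2% and 76.3%), Crot and Decr2 were the members with ACEi nearer to WT. These positions share the Veh and WT mice, rest on TMM scaling alone and are given as a description. On library totals the mitochondrial median log2 fold change moved from -1.43 to -0.85 in Veh against WT. It moved from -0.34 to -0.11 in Anti-miR-21 and from -0.56 to -0.24 in ACEi against WT. The 135% is that of Hacl1, whose fall in Veh was only -0.13 on library totals and not called. The direct comparison of both treatments gave 0 of 23 mitochondrial members and 1 of 15 peroxisomal members past the threshold (edgeR, adjusted p under 0.05), where 0.584% of all genes were called. At an unadjusted p under 0.05 there were 5 mitochondrial and 2 peroxisomal members, beside 2562 of all 17622 genes, and DESeq2 also called 0 and 1. The median log2 fold change of Anti-miR-21 against ACEi was 0.23 for mitochondrial and 0.16 for peroxisomal members, against 0.01 over all genes.

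Hao2 was the member called. Its 6 Anti-miR-21 mice (437 to 787 CPM) all stood above its 3 ACEi mice (262 to 321 CPM), as for 4.19% of all genes, at a log2 fold change of 1.10 ± 0.23 SE and an adjusted p of 0.0328 in edgeR. The call was kept in 13 of 20 alternatives, with adjusted p from 0.000202 to 0.203 over all 20. With flow cell as a term, the call was kept only at the threshold (adjusted p = 0.05 after rounding, in edgeR). It was lost in 6 of the 9 fits that left out 1 mouse, namely without A12 (adjusted p = 0.0591), A15 (0.0667), A22 (0.0685), A11 (0.146), A13 (0.0903) or A23 (0.203), all in edgeR. It was lost too without the 4 mice with adipocyte markers (adjusted p = 0.0762), while the log2 fold change stayed between 1.0 and 1.2 throughout. Acsm3 pointed the other way, at -0.53 ± 0.44 SE (95% interval -1.45 to 0.38, adjusted p = 0.601), and was not called.

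Comparison of each treated group with WT asked which members still differed. In Anti-miR-21 mice 15 mitochondrial and 9 peroxisomal members were lower than in WT (edgeR, adjusted p under 0.05), where 19.8% of all genes were called lower and 23.9% higher. Hadha (-0.20) was among the members called and turned to 0.04 on library totals. No member was called higher. The largest remaining differences were in Acsm3 (log2 fold change -1.47 ± 0.38 SE), Acox3 (-0.88 ± 0.17), Crot (-0.79 ± 0.19) and Acadm (-0.75 ± 0.22). The 14 members not called were Acadl, Cpt2, Slc25a20, Etfb, Decr1, Eci1, Acaa2, Acsl1, Acaa1b, Ehhadh, Pex11a, Pecr, Hacl1 and Hao2. Of these, Hao2 (0.36 ± 0.19), Hacl1 (0.26 ± 0.13) and Acaa1b (0.08 ± 0.25) had values above 0, and Hao2 and Hacl1 were called higher than WT when counts were scaled to library totals (0.59 and 0.50 on the log2 scale), as was Slc25a20 (0.18). Without WT mouse A3, Hao2 was also called higher than in WT (0.54, adjusted p = 0.0235 in edgeR).

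In ACEi mice 19 mitochondrial and 12 peroxisomal members were lower than in WT, where 22.5% of all genes were called lower, among them Decr2, which came to 0.0026 by limma on FPKM. Acox2 (-1.04 ± 0.28), Acadm (-1.03 ± 0.27) and Acox3 (-0.98 ± 0.22) had the largest differences among those called. The 7 not called were Slc25a20, Acaa2, Acsl1, Acsm3, Acaa1b, Pecr and Hacl1. These calls depended on scaling. On library totals 6 mitochondrial and 4 peroxisomal members were lower in Anti-miR-21 mice, and 10 and 5 in ACEi mice. Without ACEi mouse A23, 7 peroxisomal members were called in place of 12.

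Other genes of the same pathways moved in the same comparisons. Of 24 other mitochondrial fatty acid genes, 20 were lower and 3 higher in Veh against WT, where 34.0% of all genes were called lower and 39.0% higher. The steepest fall was in Acsm2, a medium-chain synthetase (4831 to 6210 CPM in WT, 300 to 1189 CPM in Veh; log2 fold change -3.19 ± 0.28 SE), and the largest rise was in Cpt1c, the form of the transferase known from brain (1.96 to 3.39 CPM in WT, 9.57 to 16.4 CPM in Veh; 2.40 ± 0.16). Acsl4 and Acsl5, both long-chain synthetases, were the other risers, at 0.63 and 0.49. Under Anti-miR-21 20 of the 24 were higher and 3 lower than in Veh, and under ACEi 17 and 3, where 30.5% and 19.1% of all genes were called lower.

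Of 19 other peroxisomal lipid genes that could be tested, 16 were lower and 2 higher in Veh, beside 34.0% and 39.0% of all genes. Nudt19, a peroxisomal hydrolase of CoA compounds, fell by 3.40 on the log2 scale and Amacr, the racemase for branched chains, by 3.27. The transporter Abcd2 was higher at a low level (0.205 to 0.676 CPM in WT, 1.04 to 5.23 CPM in Veh; log2 fold change 2.85 ± 0.49 SE). All 15 peroxisome assembly genes were lower in Veh, with a median of -0.86, and Pex7, the import receptor for a subset of matrix proteins, fell most (71.6 to 81.3 CPM in WT, 27 to 36.2 CPM in Veh; -1.33 ± 0.09). All 15 were higher under Anti-miR-21 than in Veh and 14 under ACEi, where 28.8% and 21.0% of all genes were called higher.

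Ketone bodies are made and used by linked enzymes, and 4 of 5 were lower in Veh, with Bdh1 falling most (268 to 359 CPM in WT, 37.4 to 87.3 CPM in Veh; log2 fold change -2.43 ± 0.19 SE). Of 8 receptors and coactivators, 7 were lower, among them Ppara (-1.12), Ppargc1a (-1.19) and Esrra (-1.29). Both counts stand beside 34.0% of all genes called lower in Veh. Ppard had the most negative fold change (38.1 to 49 CPM in Veh; -1.42 ± 0.32), with WT mice A17 and A18 at 214.6 and 168 CPM and the other WT mice at 54 to 79 CPM. Pparg was the riser (1.21 ± 0.30), at 4.96, 7.44 and 7.96 CPM in Veh mice A9, A4 and A1 and at 2.14 to 2.96 CPM in the other Veh mice. The first 3 are the Veh mice with adipocyte markers, and the part of these in the rise was not tested.

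Known PPARα targets outside oxidation did not move as a block. Of 10, 6 were higher and 3 lower in Veh, with a median log2 fold change of 0.69, where 39.0% and 34.0% of all genes were called. Without overlap of the groups, 2 were higher and 2 lower. Vnn1, a pantetheinase, fell most (76.9 to 142 CPM in WT, 23.2 to 59.5 CPM in Veh; -1.54 ± 0.23 SE), and Cyp4a10, a fatty acid hydroxylase, fell by 1.21. Plin2, which coats lipid droplets, rose by 1.05. Fgf21 had the largest fitted rise, but it was at 0 in all 5 WT mice and at 0.0562 to 0.553 CPM in Veh, and no fold is given. For these rises too, the part of the adipocyte markers in A1, A4 and A9 was not tested.

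Markers of several cell types moved with the members. Beside the counts of markers that follow, 34.0% of all genes were called lower and 39.0% higher in Veh against WT. The 7 proximal tubule markers all fell in Veh (median log2 fold change -1.95, range -4.59 to -1.35), and their summed level went from 11427 to 14903 CPM in WT to 1437 to 3621 CPM in Veh. It lay at 6193 to 10662 CPM in Anti-miR-21 and 6411 to 8376 CPM in ACEi mice. In Veh the summed mitochondrial members stood at 0.98 to 1.52 times the summed proximal tubule markers, against 0.601 to 0.731 times in WT, and the peroxisomal members at 0.622 to 0.852 times against 0.465 to 0.542. In the treated mice these ratios were 0.664 to 0.84 and 0.523 to 0.607 (Anti-miR-21), and 0.676 to 0.805 and 0.489 to 0.571 (ACEi).

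Markers of other nephron segments fell in Veh as well. Of the 4 distal tubule markers 3 were lower and 1 higher (median log2 fold change -1.66, summed 841 to 1222 CPM in WT and 252 to 389 CPM in Veh). Of the 4 thick ascending limb markers 3 were lower and 1 higher (median -1.0, summed 2096 to 4791 CPM in Veh), and of the 4 collecting duct markers 3 were lower. Podocyte markers went the other way, with 3 of 4 higher.

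All 5 macrophage markers were higher in Veh (summed 137 to 150 CPM in WT, 771 to 943 CPM in Veh), as were all 4 fibroblast markers (109 to 250 CPM and 1485 to 1793 CPM) and all 5 markers of tubule injury (23.2 to 35.4 CPM and 836 to 1352 CPM). In both treated groups these sums lay between WT and Veh, at 334 to 503 CPM and 431 to 510 CPM for macrophages, 421 to 807 CPM and 790 to 902 CPM for fibroblasts, and 268 to 555 CPM and 536 to 624 CPM for injury (Anti-miR-21 first). All 4 T cell markers and all 3 B cell markers were higher in Veh too, at low levels (summed 0.401 to 1.18 CPM in WT and 5.52 to 18.2 CPM in Veh for T cells, 1.03 to 2.37 CPM and 4.84 to 6.21 CPM for B cells). The part of these cell types in the members' changes was not tested.

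**Figure D5:**
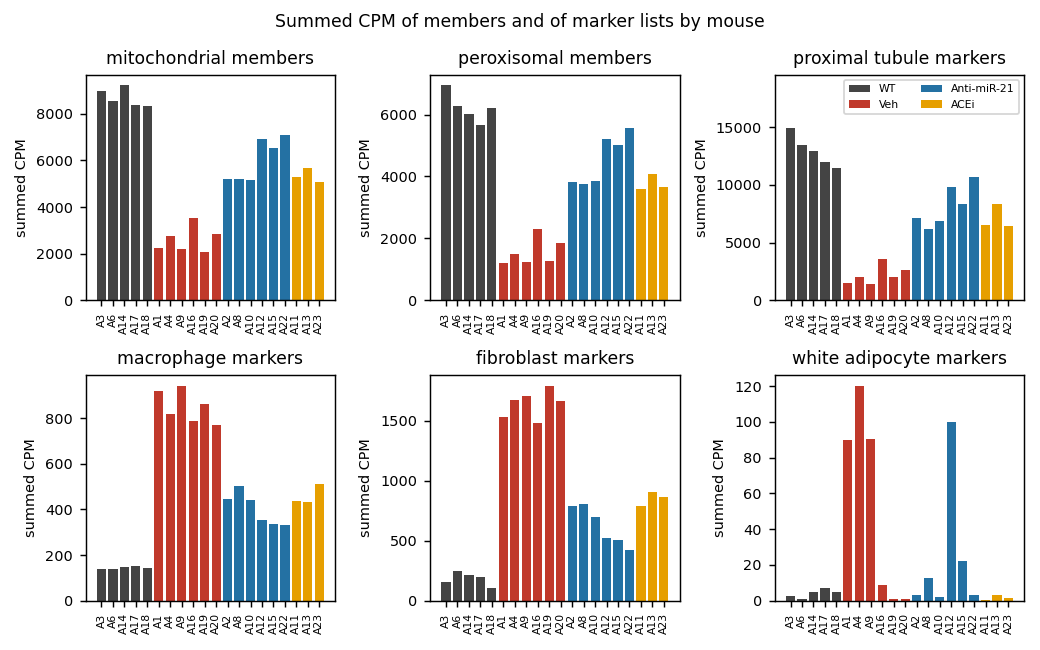
Summed CPM (bars from 0) of mitochondrial members, peroxisomal members and 4 marker lists in each mouse, coloured by group. Members and proximal tubule markers are lowest in the Veh mice, macrophage and fibroblast markers are highest there, and white adipocyte markers are high in A1, A4, A9 and A12.

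Members' positions in the genome bear on how reads could be assigned. The 38 genes lay on 15 chromosomes, and the exons of 16 overlapped those of another annotated gene. The authors' annotation of the FPKM table marked 13 as confounded with other genes. These were Acadvl, Acad11, Hadha, Hadhb, Crat, Etfb, Decr1, Eci2, Echs1, Acsm3, Acox3, Scp2 and Pecr. In Etfb 65.2% and in Scp2 32.2% of the 100-base stretches of the transcript occurred in another gene (Gm45233 and Scp2-ps2 most often). By shared stretches alone, the levels of Etfb, Hadhb, Hacl1, Scp2, Acaa1a and Acaa1b are less certain than those of the other members. Hacl1, Acaa1a and Acaa1b are not among the 13 marked as confounded. Acadm (ENSMUSG00000062908, chr3:153922357-153944632, minus strand), Hao2 (ENSMUSG00000027870, chr3:98874521-98893239, minus strand), Acox2 (ENSMUSG00000021751, chr14:8225511-8259353, minus strand) and Hadh had no exon overlap with another gene and no stretch in common with one (GRCm38). Acsm3 (ENSMUSG00000030935, chr7:119760923-119787513, plus strand) overlapped an exon of Eri2 on the opposite strand.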

How the data were processed

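Total RNA from 20 kidneys, 1 library per mouse, was sequenced as paired reads. The authors aligned the reads to GRCm38 in OmicSoft Studio and deposited estimated counts per Ensembl gene, of which 27.9% of positive values were not whole and were rounded. The authors also deposited FPKM on other gene models, used here for levels between genes, and 3 FPKM columns of no labelled sample were not used. Columns were matched to mice by the library name in the labels, and groups were taken from the labels. Genes at 0 or low counts were removed (edgeR filterByExpr, minimum count 10, minimum total 15), which left 17622 of 47069 genes.

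All 20 libraries were fitted in 1 model by group (edgeR 4.0.16, R 4.3.3), with TMM scaling, the quasi-likelihood test and Benjamini-Hochberg adjustment over all genes tested at a threshold of 0.05. CPM used TMM-scaled totals, and log2 CPM a prior count of 2. Intervals are 95% intervals. p-values set the difference between groups against the spread between mice. Alternatives were DESeq2 1.42.0, limma 3.58.1 on log2(FPKM + 1) and log2(FPKM + 0.1), other scalings and filters, flow cell as a term, and leaving out each mouse. Leaving out A1, A4, A9 and A12 was added after seeing the data. The Anti-miR-21 trios and the Veh pair A16 and A20 were also picked after seeing the data. On simulated counts for Veh against WT (17254 genes), 81% of changes of 1 and 93.9% of changes of 2 on the log2 scale were recovered. For Anti-miR-21 against Veh (17252 genes) these shares were 71.9% and 99%, and for ACEi against Veh (17234 genes) 72.4% and 87.8%. Of the simulated calls, 4.95%, 5.65% and 3.68% were false, in the same order. Only 96 to 100 genes were changed at each size, about evenly up and down, far fewer than were called in the data. Recovery in the data can therefore differ from these shares.

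The members and all lists were chosen with earlier results of these data known. Values per mouse are given for the 4 members of each compartment with the largest change in Veh against WT and for members past the threshold between the treatments. Of each other pathway list the genes that rose and fell most in Veh against WT are named, and other genes of these lists were named after their values were seen. Some genes of these lists are not reported here. Sequences and promoters are from RefSeq (GRCm38.p6), gene positions and 3′UTRs from the GENCODE annotation of GRCm38. Text and tables were handled in Python 3.11.15 (pandas 2.3.3, numpy 2.4.6), with figures from matplotlib 3.10.9.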

Additional observations from a re-analysis of the deposited data

Results flagged for a closer look

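In 3 of the 114 member-by-group comparisons of 4 to 6 mice (38 members in WT, Veh and Anti-miR-21), 1 mouse stood apart from its group by Dixon's criterion, which chance meets in about 1 of 20 groups. In each the highest WT mouse was concerned, and the value is its gap to the next mouse as a share of the range of the group. Acadm in A14 (1626 CPM) had a ratio of 0.832, Cpt2 in A3 (273 CPM) a ratio of 0.716 and Crat in A3 (248 CPM) a ratio of 0.76. All 3 members were called lower in Veh with each WT mouse left out in turn.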

How the results depend on the processing

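Of the values per member and alternative, 4647 kept direction and side of the threshold, 171 lost the call, 32 gained one and 52 changed sign. Library totals (52 values) and limma on log2(FPKM + 1) and log2(FPKM + 0.1) (56 and 58) changed more of them than any other alternative. On library totals the median log2 fold change of mitochondrial and peroxisomal members was -0.85 and -1.29 in Veh against WT, 0.72 and 1.13 in Anti-miR-21 against Veh, and 0.57 for mitochondrial members in ACEi against Veh. Against WT it was -0.11 for mitochondrial members in Anti-miR-21, and -0.24 and -0.38 in ACEi. The members called in Anti-miR-21 against WT were then 6 and 4, also by limma on log2(FPKM + 1) and log2(FPKM + 0.1). In ACEi against WT they were 10 and 5 on totals, 8 and 4 by limma on log2(FPKM + 1) and 8 and 3 on log2(FPKM + 0.1).

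Under totals and both limma fits, Hadha in Anti-miR-21 against WT came to 0.0418, 0.0495 and 0.0504, and Slc25a20 in Veh against WT to 0.0309, 0.0401 and 0.0414. In Anti-miR-21 against WT, in the same order, Slc25a20 came to 0.1827, 0.1813 and 0.1874, Eci1 to 0.1003, 0.0952 and 0.0961, Acaa2 to 0.0648, 0.0713 and 0.0718, Acsl1 to 0.1479, 0.1655 and 0.1696, and Pex11a to 0.0607, 0.0284 and 0.0296. In ACEi against WT, Slc25a20 came to 0.0873, 0.0916 and 0.0948, Acsl1 to 0.0113, 0.0289 and 0.0298, and Hacl1 to 0.2014, 0.1782 and 0.1945, while Decr2 came to 0.0026 and 0.0028 by limma alone. Between the treatments, Acaa1a came to -0.0236, -0.0274 and -0.0277, Phyh to -0.0188, -0.0279 and -0.0280, and Acox3 to -0.0026 and -0.0030 by limma alone. Crot came to 0.1566 with flow cell as a term and Phyh to -0.0256 without A1, A4, A9 and A12. Apart from Hadha, Decr2 and Slc25a20 in Veh and Anti-miR-21 against WT, none of these was called in either fit.

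Leaving out 1 mouse changed the sign of values that were called in neither fit. In Anti-miR-21 against WT, Acsl1 ranged from -0.1448 to 0.0349 (above 0 without A6) and Acaa1b from -0.0054 to 0.2077 (below 0 without A12 or A14). Hacl1 in ACEi against WT ranged from -0.1943 to 0.0363 (above 0 without A23). Between the treatments, Crot ranged from -0.1213 to 0.0262 (above 0 without A8, A10 or A11) and Phyh from -0.0592 to 0.1578 (below 0 without A11, A12 or A22). The cause was not tested. On totals the median of all genes was 0.65 in Veh against WT, -0.38 in Anti-miR-21 against Veh and -0.32 in ACEi against Veh, and the share of higher genes among those called went from 48.6% to 20% and from 52.4% to 20.5% in the last pair. Against WT it went from 54.6% to 88.6% in Anti-miR-21 (median 0.26) and from 52.7% to 85.6% in ACEi (median 0.31).

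Leaving out 1 mouse at a time gave 23 mitochondrial and 15 peroxisomal members in Veh against WT and in Anti-miR-21 against Veh, and 22 to 23 and 15 in ACEi against Veh. It gave 12 to 16 and 8 to 9 in Anti-miR-21 against WT, 15 to 20 and 7 to 12 in ACEi against WT (7 without A23), and 0 and 0 to 1 between the treatments. Without A1, A4, A9 and A12 no member was called between the treatments (0 of 38). Counting Acad11, Crat and Eci2 as peroxisomal gave 20 and 18 members. No paired analysis was possible because the labels give each mouse its own name and no number common to the groups.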
